A study of Mus musculus with 39 samples.

Results

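The RNAs described here are those of 10 genes that mark Kupffer cells, the resident macrophages of the liver: Clec4f, Cd5l, Vsig4, Csf1r, C1qa, C1qb, C1qc, Marco, Cd68 and Lyz2. The rule names them as marker genes and uses no measured value, though the choice was made with earlier results of these data known, and all 10 had a row in both deposited tables, which share 13230 genes. The values come from ATLAS-Seq, in which a detergent-free homogenate of mouse liver, cleared of nuclei by a low-speed spin, is spread over a continuous sucrose gradient and the RNA of each fraction is sequenced. Livers of 2 female FVB mice of wild-type genotype were used, 1 mouse per gradient, and the labels give no treatment and no age. Gradient 1 was sequenced in 17 of its fractions (4 to 19, and 21) and gradient 2 in 22 (3 to 24), and density rises with the fraction number. Each fraction is 1 library per gradient, so the gradient is the replicate and n = 2 for every statement on a zone. The comparison asks whether RNAs made in liver macrophages were distributed over the gradient like other RNAs of the same protein class or like other RNAs of the same cell of origin.

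Kupffer cells line the sinusoids of the liver, where they take up particles, dying cells and microbes from the portal blood. Their markers are surface receptors, secreted factors or lysosomal proteins, and all such proteins start their path at the endoplasmic reticulum (ER): a hydrophobic stretch in the nascent chain, either a signal peptide or a membrane anchor, brings the translating ribosome and its mRNA to the ER membrane. Messages for cytosolic proteins are translated on free ribosomes. In a gradient without detergent, an mRNA can therefore be carried by a piece of membrane as well as by ribosomes. Most of the RNA in a liver homogenate comes from hepatocytes, which serve below as the comparison for cell of origin.

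The stretches that set the class of these RNAs are shown first, since every marker carries one. Each sequence is the most hydrophobic run of 10 codons among the first 80 of the coding sequence, from the GRCm38 reference (GENCODE release M21), 5′ to 3′, and capitals mark a T in the middle position of a codon, which codes for the strongly hydrophobic residues Phe, Leu, Ile, Met and Val.
Cd5l, codons 7 to 16: tTgaTgcTggccaTctTgagcaTttTtgTt
C1qa, codons 9 to 18: gTggcctgtgTgcTgaccaTgacccTagTa
C1qb, codons 13 to 22: tTacTgcTgcTtcTaggttTtcTccatgTg
C1qc, codons 13 to 22: cTttgccTgcTgcTgcTgtTtcTtcTggcc
Lyz2, codons 5 to 14: cTgactcTgggacTccTccTgcTttctgTc
Vsig4, codons 7 to 16: tTgcTgtTccTgggccaccTaaTagTgcTc
Cd68, codons 5 to 14: gTgtgtcTgaTctTgcTaggaccgcTtaTa
Clec4f, codons 46 to 55: aTtcTggcatTaaTggTggTgactgTgaTc
Marco, codons 51 to 60: gcagTcaTggccaTccaccTgaTccTgcTc
Lcp1 (cytosolic macrophage protein), codons 37 to 46: tTgtTcaaggccgcctgccTgcctcTgcct
Ptpn6 (cytosolic macrophage protein), codons 71 to 80: tTtgcgacgcTgacagagcTggTcgagtat
Pik3ap1 (cytosolic macrophage protein), codons 67 to 76: gTgcTggTgcTacTgtcggcggggcTggTa

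Of the 10 codons, 6 to 8 had a T in the middle position in every marker, against 4 in Lcp1, 4 in Ptpn6 and 7 in Pik3ap1, the 3 cytosolic macrophage RNAs of highest level (chromosomes 14, 6 and 19), so the run alone does not separate every gene of the lists. Over all 10807 tested genes with a matching coding transcript the median was 5 codons, and 15.7% of genes had 7 or more. In Clec4f and Marco, which have an uncleaved signal anchor behind a short cytosolic tail, the run lies further in than in the other markers printed, where it starts between codons 5 and 13. C1qa, C1qb and C1qc, the chains of complement component C1q, neighbour each other on the minus strand of chromosome 4, at chr4:136895917-136898803, chr4:136880129-136886187 and chr4:136889804-136893065. Cd5l lies at chr3:87357881-87371073, Vsig4 at chrX:96247203-96293438, Clec4f at chr6:83644542-83656187, Marco at chr1:120474538-120505024, Cd68 at chr11:69664213-69666153 and Lyz2 at chr10:117277331-117282321, all in mm10 coordinates. The stretches are in coding sequence. Csf1r, the receptor for the growth factors CSF1 and IL-34, has 6 such codons of 10 and is not printed.

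Levels are given in TPM (transcripts scaled to a fixed total per library), which corrects for transcript length and for the size of the library, so a value is a share of the RNA in that fraction and not an amount. Because the samples are bulk tissue, fewer cells of a type and less RNA per cell cannot be told apart. The libraries summed to between 998099 and 999202 TPM over the genes kept, with 10532 to 12558 genes above 1 TPM per library. Albumin (Alb), the defining product of hepatocytes, had a mean of 10503 TPM in gradient 1 and 8656 TPM in gradient 2. Markers of blood myeloid cells reached higher levels in gradient 1 than in gradient 2, and those of lymphocytes were low in both. Of 10 monocyte and neutrophil markers, 4 were summed in gradient 1, to between 1.28 and 23.5 TPM over its libraries, and 5 in gradient 2, to between 0.147 and 5.78 TPM. The other 6 and 5 had no row among the deposited genes of the respective gradient. S100a9 and S100a8 passed the filter on mean TPM. Their means were 5.66 and 3.48 TPM in gradient 1, where Cd68 had 3.56 and Marco 2.47 TPM. In gradient 2 they were 1.25 and 0.558 TPM, where Cd68 had 3.95 and Marco 4.63 TPM. Of 10 lymphocyte markers, 7 and 4 were summed, to at most 10.4 and 7.86 TPM, and none passed it.

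Csf1r, Cd68 and Marco had the lowest levels of the 10. Averaged over fractions and then over the gradients, Cd5l was at 28.3 ± 0.896 TPM (SD, n = 2), C1qc at 27.5 ± 4.24, C1qb at 24.1 ± 0.439, Clec4f at 22.0 ± 1.22, C1qa at 22.0 ± 6.63, Lyz2 at 21.2 ± 0.269 and Vsig4 at 15.6 ± 1.42 TPM. Csf1r (6.91 ± 0.355 TPM), Cd68 (3.75 ± 0.276 TPM) and Marco (3.55 ± 1.53 TPM) were lower. Of the neighbours in this order, Cd5l and C1qc, C1qc and C1qb, Clec4f and C1qa, C1qa and Lyz2, and Cd68 and Marco did not differ beyond the spread between gradients, whereas C1qb exceeded Clec4f, Lyz2 exceeded Vsig4, Vsig4 exceeded Csf1r and Csf1r exceeded Cd68 by more than that spread. The sum over the 10 markers was highest at the light end, with 293 TPM in fraction 4 of gradient 1 and 270 TPM in fraction 3 of gradient 2, and lowest in the center, with 102 TPM in fraction 13 and 117 TPM in fraction 12.

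**Figure D1:**
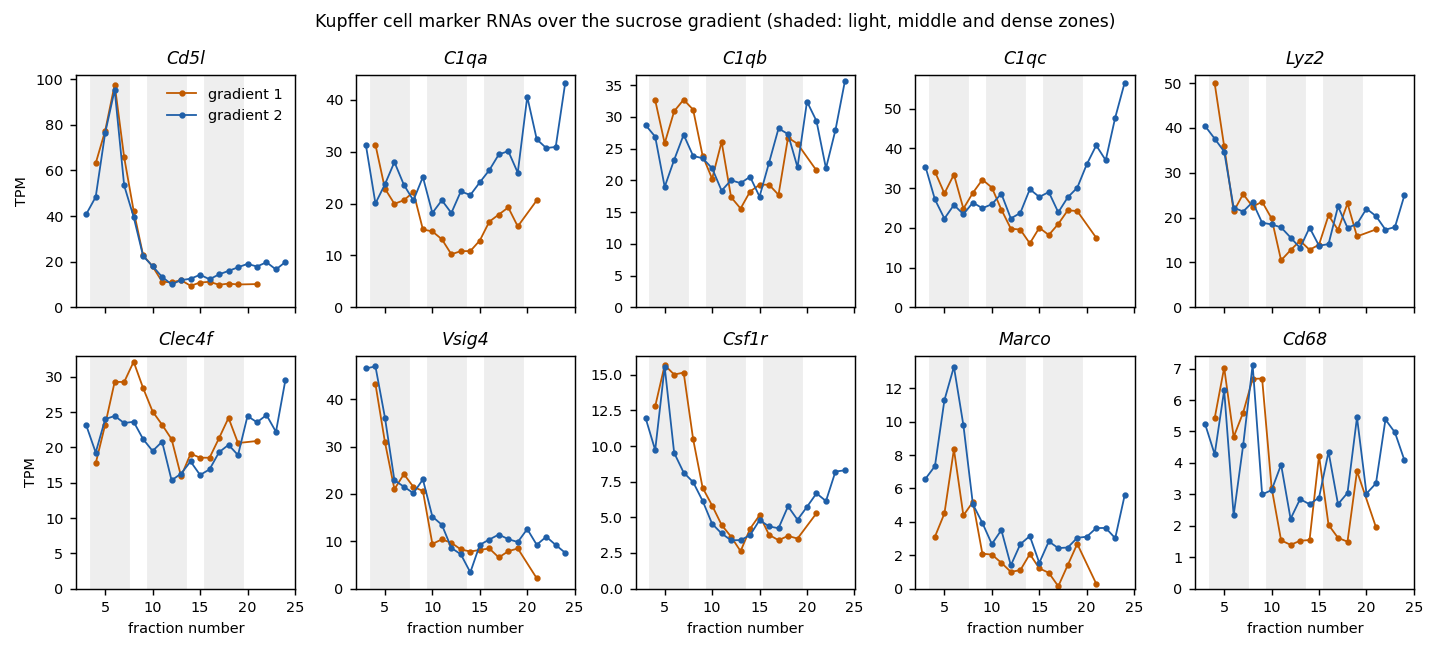
Level of each Kupffer cell marker RNA in TPM (vertical axis, linear, from 0) against fraction number (horizontal axis, density rising to the right), with 1 point per library, orange for gradient 1 and blue for gradient 2, and shading for the light, middle and dense zones. Cd5l peaks at 97.6 and 95.3 TPM in fraction 6 of the respective gradients, while the 3 C1q RNAs stay within a narrower range and end highest in fraction 24 of gradient 2.

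To compare parts of the gradient with a measure of error, the mean of log2(TPM + 1) was taken in each gradient for a light zone of fractions 4 to 7, a middle zone of fractions 10 to 13 and a dense zone of fractions 16 to 19, and the zone means of 11754 genes were compared with limma, with p-values adjusted by the Benjamini-Hochberg method over all of them. Changes are differences on the log2(TPM + 1) scale, which understates changes of low RNAs. From the light to the dense zone 5 of the 10 markers fell and 0 rose, against 39.6% of all genes that fell and 22.3% that rose (61.9% called in all). The median change was -0.63 for the markers and -0.43 for all genes, and the gap between these medians was -0.50 in gradient 1 and -0.04 in gradient 2. The mean fraction number of an RNA, weighted by its TPM, had a median over the markers that differed from that of all genes by -0.88 fractions in gradient 1 and by 0.07 in gradient 2 over the 17 shared fractions, and by 0.31 over all fractions of gradient 2. From the light to the middle zone the same number, 5 of 10, fell and 0 rose, against 24.1% and 23.5% of all genes (47.5% called in all), and the medians were -0.87 and 0.05. With the gradient as a block in the model, 8 of 10 fell from the light to the middle zone, where 35.0% of all genes fell in the same fit, and the count for the dense zone stayed at 5, where 50.0% of all genes fell. Between the middle and the dense zone limma called 0 of the 10 in either direction, with and without the block, and 0 had an unadjusted p under 0.05, while 27.3% of all genes were called (22.5% lower and 4.79% higher in the dense zone). In the fits without the block, the markers called in the 2 contrasts with the light zone were in both cases Cd5l, Vsig4, Csf1r, Marco and Lyz2.

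Cd5l, a scavenger receptor-like protein that macrophages secrete into the blood, had the largest change between light and dense zones of the 10. Its levels in fractions 4, 5, 6 and 7 were 63.1, 77.4, 97.6 and 65.7 TPM in gradient 1 and 48.4, 76.4, 95.3 and 53.4 TPM in gradient 2. In the middle zone it lay between 10.9 and 17.9 TPM in gradient 1 and between 10.1 and 18.0 TPM in gradient 2, and in the dense zone between 9.84 and 11.2 TPM and between 12.3 and 17.5 TPM. No library of the light zone overlapped any of the middle or dense zone in either gradient. The mean of the light zone was 7.34 times that of the dense zone in gradient 1 and 4.55 times in gradient 2, a change of -2.41 ± 0.22 (SE) with an adjusted p of 0.00055 by limma. The profiles of the gradients matched closely over the 17 shared fractions, with Pearson's R of 0.98.

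Among the surface receptors, Vsig4, Csf1r and Marco fell and Clec4f did not pass the test. Vsig4, a complement receptor that clears opsonized particles, was highest in fraction 4 of both gradients (43.2 and 47.0 TPM). It lay between 21.0 and 43.2 TPM in the light zone of gradient 1 and between 6.57 and 8.47 TPM in its dense zone, and between 21.5 and 47.0 TPM and between 9.83 and 11.4 TPM in gradient 2. Its change to the dense zone was -1.60 ± 0.21 (limma, adjusted p = 0.0016), and the zones did not overlap.

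Csf1r, the receptor on which macrophage survival depends, peaked in fraction 5 of both gradients at 15.7 and 15.6 TPM. Its dense zone ranged from 3.39 to 3.77 TPM in gradient 1 and from 4.23 to 5.77 TPM in gradient 2, below light zones of 12.8 to 15.7 TPM and 8.14 to 15.6 TPM. The change was -1.77 in gradient 1 and -0.99 in gradient 2, and -1.38 ± 0.25 in the fit of both (limma, adjusted p = 0.0048). The gene overlaps Hmgxb3 on the opposite strand and the microRNA gene Mir6983 on its own strand, so its value is uncertain where reads of these could be shared. Marco, a scavenger receptor for bacteria and particles, peaked in fraction 6 of both gradients, at 8.35 and 13.3 TPM. It fell by 1.54 ± 0.44 (limma, adjusted p = 0.025), with the dense zone between 0.138 and 2.68 TPM in gradient 1 and between 2.42 and 3.04 TPM in gradient 2. The calls for the dense and the middle zone were lost after quantile normalization, with changes of -0.95 and -1.24 (limma, adjusted p = 0.16 and 0.091), against -1.54 and -1.49 as deposited.

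Clec4f, a C-type lectin found in mice on Kupffer cells, was spread more evenly. Its lowest, median and highest levels were 15.9, 21.3 and 32.2 TPM in gradient 1 and 15.3, 21.0 and 29.6 TPM in gradient 2. The highest library was fraction 8 in gradient 1 and fraction 24 in gradient 2, and the zones overlapped in both gradients. The light zone averaged 24.9 and 22.8 TPM and the dense zone 21.2 and 18.9 TPM, a change of -0.23 ± 0.18 that did not pass the test (limma, adjusted p = 0.31).

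The lysosomal proteins were intermediate. Lyz2, the lysozyme of macrophages, which is both secreted and stored in lysosomes, was highest in the lightest fraction of each gradient, at 50.0 TPM in fraction 4 of gradient 1 and 40.4 TPM in fraction 3 of gradient 2. It averaged 33.1 and 29.0 TPM in the light zone, 14.5 and 16.3 TPM in the middle zone and 19.2 and 18.2 TPM in the dense zone of gradients 1 and 2. The change was -0.93 ± 0.18 to the middle zone (limma, adjusted p = 0.0087) and -0.66 ± 0.18 to the dense zone (limma, adjusted p = 0.021), where light and dense libraries overlapped in both gradients. The call for the dense zone was lost after quantile normalization and with shifted zone borders (limma, adjusted p = 0.073 and 0.056). The near-identical copy Lyz1, expressed mainly by Paneth cells of the gut, was listed at 0 to 4.42 TPM in gradient 1 and 0.525 to 6.02 TPM in gradient 2, or 6.16% and 8.22% of the sum of both genes, and reads could have been split between them. Cd68, a heavily glycosylated protein of the lysosomal membrane, ranged from 1.39 to 7.03 TPM in gradient 1 and from 2.22 to 7.12 TPM in gradient 2. Its change to the dense zone was -1.10 in gradient 1 and -0.12 in gradient 2, or -0.61 ± 0.31, and did not pass the test (limma, adjusted p = 0.14). To the middle zone it was -0.81 ± 0.31 (limma, adjusted p = 0.080, 0.041 with the gradient as a block and 0.031 with shifted zone borders).

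The RNAs of the 3 C1q chains, which assemble into the protein that starts the classical complement pathway, were the least changed of the secreted markers, and their change to the dense zone had opposite signs in the 2 gradients. C1qa averaged 23.7, 12.2 and 17.3 TPM in the light, middle and dense zones of gradient 1 and 23.8, 19.8 and 28.0 TPM in gradient 2. C1qb averaged 30.5, 19.8 and 22.4 TPM in gradient 1 and 24.1, 20.0 and 25.1 TPM in gradient 2. For C1qc the averages were 30.3, 23.5 and 21.9 TPM in gradient 1 and 24.7, 25.1 and 27.7 TPM in gradient 2. The dense zone was thus below the light zone for all 3 in gradient 1, with changes of -0.41, -0.45 and -0.44 for C1qa, C1qb and C1qc, and above it in gradient 2, with 0.23, 0.06 and 0.16. None of the 3 passed the test in the fit of both gradients, with changes of -0.09 ± 0.32, -0.19 ± 0.19 and -0.14 ± 0.20 (limma, adjusted p = 0.82, 0.42 and 0.57). To the middle zone C1qa and C1qb were called lower with the gradient as a block (limma, adjusted p = 0.042 and 0.047) and not without it (0.19 and 0.12).

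The gradients also stood apart at the bottom, which gradient 1 samples with fraction 21 alone. In that fraction the 3 C1q RNAs summed to 59.7 TPM in gradient 1 and 102 TPM in gradient 2. In fractions 20 to 24 of gradient 2 C1qc lay between 36.0 and 56.5 TPM and averaged 1.58 times its dense zone, C1qa 1.27 times and C1qb 1.17 times. Over 11615 genes the median was 0.909 times and the upper quartile 1.08 times. Of the 10 markers 9 averaged higher in fractions 20 to 24 than in the dense zone, with Csf1r at 1.46 times, Marco at 1.41, Clec4f at 1.32, Cd5l at 1.24, Lyz2 at 1.13 and Cd68 at 1.07 times. Vsig4 was at 0.943 times, and both Cd68 and Vsig4 lay below the upper quartile over all genes. The share of all genes above 1 was not counted. With 1 mouse sampled in most of these fractions, the values have no replicate check. Between the gradients C1qa had an R of 0.18, C1qb of 0.35 and C1qc of -0.36, against 0.59 for Cd68 and 0.74 to 0.98 for the other 6 markers. Within a gradient the chains ran closer together, with R between 0.58 and 0.75 in gradient 1 and between 0.65 and 0.79 in gradient 2. The ratio of C1qa to C1qb was nevertheless not fixed, with a median of 0.696 in gradient 1 and 1.10 in gradient 2.

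**Figure D2:**
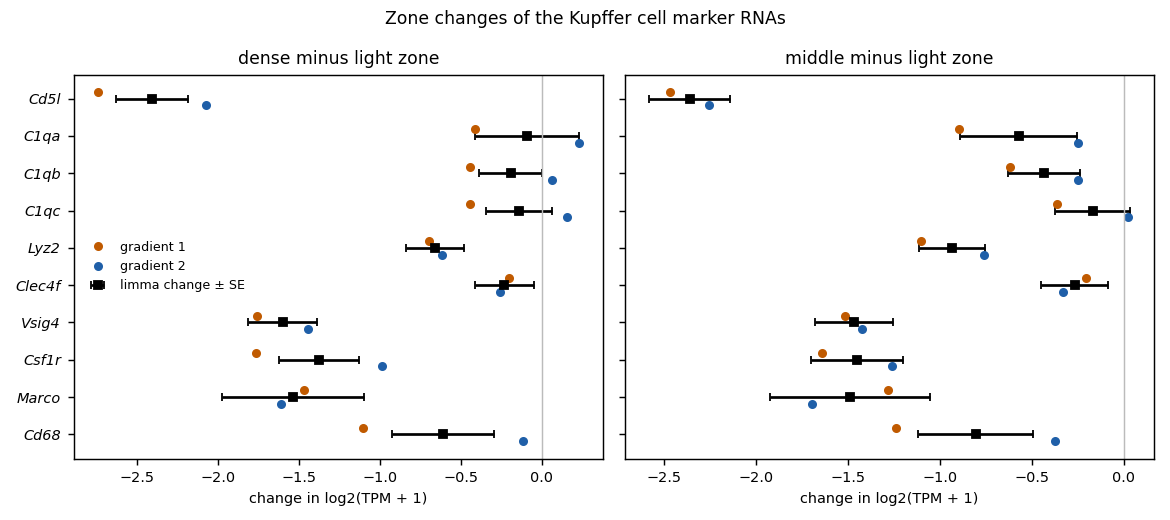
Change in log2(TPM + 1) of each marker RNA (horizontal axis) from the light to the dense zone (left) and to the middle zone (right). Black squares with bars are the limma change ± SE from both gradients, and orange and blue points are gradients 1 and 2. Cd5l lies furthest to the left at -2.41, and the C1q RNAs fall on both sides of 0 in the left panel.

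The markers as a group were then set beside lists of RNAs that share either their cell of origin or their protein class. The 2 lists of macrophage genes differed in their medians by protein class. In bulk liver the cell that made each RNA was not measured, and the part of other cells was not tested for either list. Of 32 other macrophage genes for surface, secreted or lysosomal proteins, 22 passed the filter on mean TPM, and 17 of these fell and 0 rose between light and dense zones, with a median change of -1.21. Tyrobp, a signaling adaptor in the membrane, fell by 1.97 ± 0.19 and Lgmn, a lysosomal protease, fell by 0.97 ± 0.25 (limma, adjusted p = 0.00065 and 0.017). Fcer1g, the signaling chain of Fc receptors, fell by 1.22 ± 0.37 (limma, adjusted p = 0.030). Of 30 genes for cytosolic or nuclear proteins of macrophages, 28 passed the filter, and 14 of these rose and 0 fell, with a median of 0.69. Ptpn6, a phosphatase of blood cell signaling, rose by 2.85 ± 0.32, Pik3ap1, an adaptor of PI3-kinase, rose by 2.02 ± 0.26 and Lcp1, which bundles actin, rose by 0.63 ± 0.17 (limma, adjusted p = 0.00090, 0.0015 and 0.018).

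The difference of the medians, markers minus cytosolic macrophage RNAs, was -1.33 over both gradients, -1.76 in gradient 1 and -1.05 in gradient 2. To the middle zone it was -1.43, with -1.73 and -1.10 in gradients 1 and 2. Between the middle and the dense zone it was -0.15 and differed in sign between the gradients (-0.42 and 0.02). Pik3ap1, Lcp1, Ptpn6 and Lyn had higher mean levels than any marker, and other liver cells could contribute to them. Without these 4 genes 11 of 24 rose and 0 fell. The median cannot show their part, since they lie evenly on both sides of it, and the part of other cells in the list was not tested.

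The same split was seen among hepatocyte RNAs, where it was wider. Of 30 RNAs for secreted hepatocyte proteins 20 fell and 1 rose from the light to the dense zone (median -1.49), and of 27 for membrane proteins 17 fell and 2 rose (median -1.43). Alb fell by 2.59 ± 0.40 and Asgr1, a subunit of the asialoglycoprotein receptor, fell by 1.43 ± 0.30 (limma, adjusted p = 0.0027 and 0.0083). Slc38a3, the membrane-class RNA of highest mean level, was at -0.98 ± 0.56 and did not pass (limma, adjusted p = 0.18). Apoa2, a small apolipoprotein, was the secreted-class RNA that rose, by 1.25 ± 0.40 (limma, adjusted p = 0.038). Of 30 RNAs for cytosolic enzymes 28 rose and 1 fell (median 2.47), among them Hpd, an enzyme of tyrosine breakdown, with 3.08 ± 0.19 (limma, adjusted p = 0.00030).

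**Figure D3:**
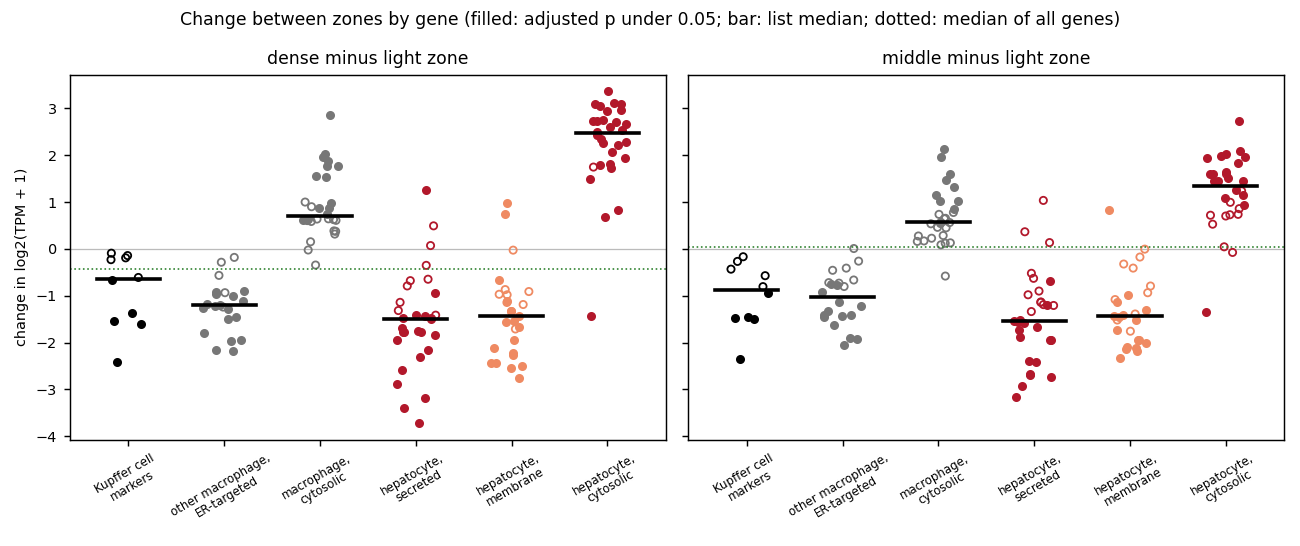
Change in log2(TPM + 1) of each gene (vertical axis) from the light to the dense zone (left) and to the middle zone (right), by list (horizontal axis, with random sideways spread). Filled points have an adjusted p under 0.05, bars are list medians and the dotted line is the median of all 11754 genes. The ER-targeted lists of both cell types have medians below the dotted line, from -1.49 to -0.63 in the left panel, and the cytosolic lists have medians of 0.69 and 2.47.

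Cell of origin was compared within each class. The median change of the markers to the dense zone was higher than that of the 57 hepatocyte RNAs for secreted and membrane proteins by 0.84 (1.23 in gradient 1 and 0.49 in gradient 2), and to the middle zone by 0.58 (0.60 and 0.63). For the other macrophage RNAs of this class the difference from hepatocytes to the dense zone was 0.27 and differed in sign between gradients (0.58 and -0.02), and it was 1.07 after quantile normalization. Between the cytosolic lists the macrophage median minus the hepatocyte median was -1.77 to the dense zone and -0.79 to the middle zone, or -0.94 and -0.30 after quantile normalization, and -0.038 to the middle zone among genes of at least 10 TPM. The differences by class to the dense zone were -1.33 for the markers and -1.90 for the other macrophage RNAs of the class, each minus the cytosolic macrophage RNAs, and -3.94 within hepatocytes. The median of the markers thus lay nearer to that of the ER-targeted hepatocyte RNAs than to that of the cytosolic macrophage RNAs in each gradient, for both contrasts with the light zone. For the dense zone the differences from the hepatocyte and the cytosolic macrophage list were close in size after quantile normalization (1.48 and -1.52), and with genes of at least 10 TPM the order turned (1.27 and -1.13). The differences between list medians carry no test, since the genes of a list are not replicates. The macrophage lists also have lower levels than the hepatocyte lists, with a median of 21.6 TPM for the markers, 2.76 TPM for the other macrophage RNAs of the class and 329 and 49.8 TPM for secreted and membrane RNAs of hepatocytes, and the part of this in the difference was not tested.

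Quantile normalization, which makes the distributions of all libraries equal, shifted the median of all genes from -0.43 to -0.05 in the contrast of dense and light zones and the share of higher genes among those called from 36.0% to 50.6%. In this contrast all 10 markers had a negative change in TPM as deposited, where 4610 of all 11754 genes had a positive one. After quantile normalization 6 of 10 had a negative change, and Clec4f, C1qa, C1qb and C1qc were at 0.003, 0.13, 0.02 and 0.06. Relative to the median of all genes the changes of these 4 were above 0 on either scale, at 0.20, 0.33, 0.24 and 0.28 as deposited. Cd5l, Vsig4 and Csf1r stayed called (limma, adjusted p = 0.0010, 0.0052 and 0.014), and these 3 of 10 compare with 29.8% of all genes called lower on that scale. In the contrast of middle and light zones all 10 markers had a negative change on both scales. As deposited, 6084 of all 11754 genes had a positive change there. The median of all genes in that contrast was 0.05 as deposited and 0.08 after quantile normalization.

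Over the whole gradient, each RNA was divided by its mean over fractions and compared with the mean profiles of 4 reference lists. In gradient 1 all 10 markers were most like a profile of ER-targeted hepatocyte RNAs, 7 the secreted and 3 the membrane list. In gradient 2 this held for 7 of 10 (2 secreted, 5 membrane), and C1qa, C1qb and C1qc were most like the cytosolic hepatocyte RNAs, with R of 0.64, 0.38 and 0.63. By rank correlation C1qb was nearer to the membrane and secreted lists of hepatocytes (Spearman's rho of 0.47 and 0.46, against 0.28 for the cytosolic list), and on log2(TPM + 1) profiles 8 of 10 markers were most like an ER-targeted list. In neither gradient was a marker most like the cytosolic macrophage RNAs. When the other macrophage RNAs of the secreted, membrane and lysosomal class were added as a further reference, a choice made after the data were seen, they were the closest for 3 markers in each gradient: Vsig4, Lyz2 and C1qa in gradient 1 (R of 0.92, 0.82 and 0.74) and Vsig4, Cd5l and Lyz2 in gradient 2 (R of 0.84, 0.90 and 0.79). R with the secreted profile was 0.97 and 0.88 for Cd5l and 0.97 and 0.92 for Csf1r, whereas R with the cytosolic macrophage profile was -0.82 and -0.75 for Cd5l and -0.84 and -0.74 for Csf1r. Averaged over the 10 markers, the profile had an R of 0.98 and 0.97 with the secreted hepatocyte list, 0.93 and 0.93 with the other macrophage RNAs of the class, and -0.87 and -0.82 with the cytosolic macrophage list. These are descriptions over 17 and 22 fractions of the same libraries, and neighboring fractions are not independent.

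**Figure D4:**
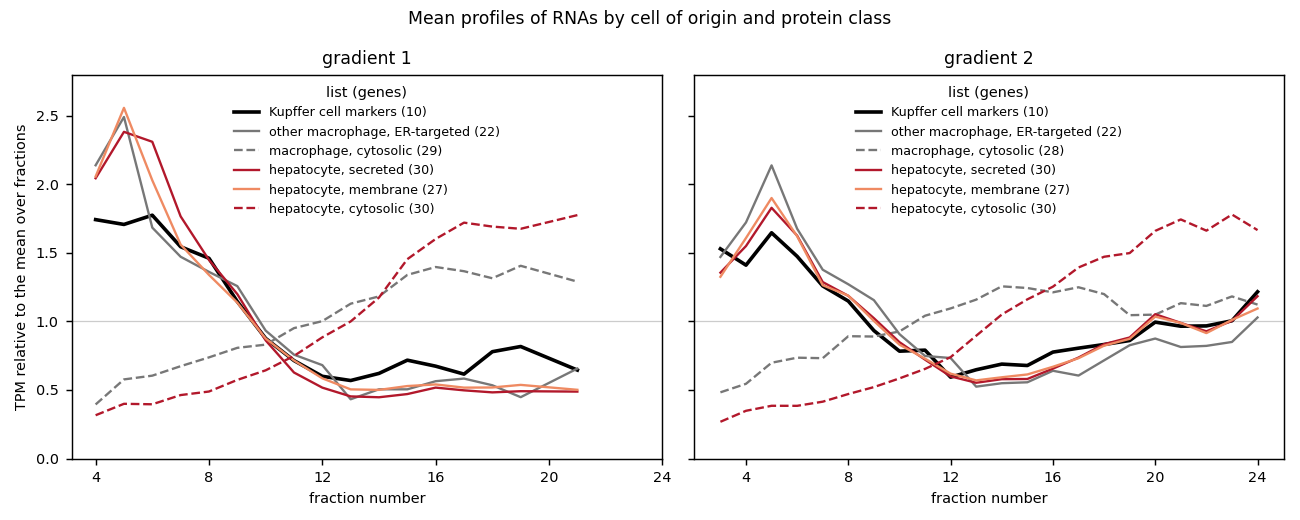
Mean profile of each list, as TPM relative to each RNA's mean over the fractions (vertical axis), against fraction number (horizontal axis) in gradient 1 (left) and gradient 2 (right). Numbers of genes are in brackets. The markers (black) start at 1.74 and 1.53 in the first fraction and reach lows of 0.569 and 0.593, while the cytosolic lists (dashed) start below 0.5.

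**Figure D5:**
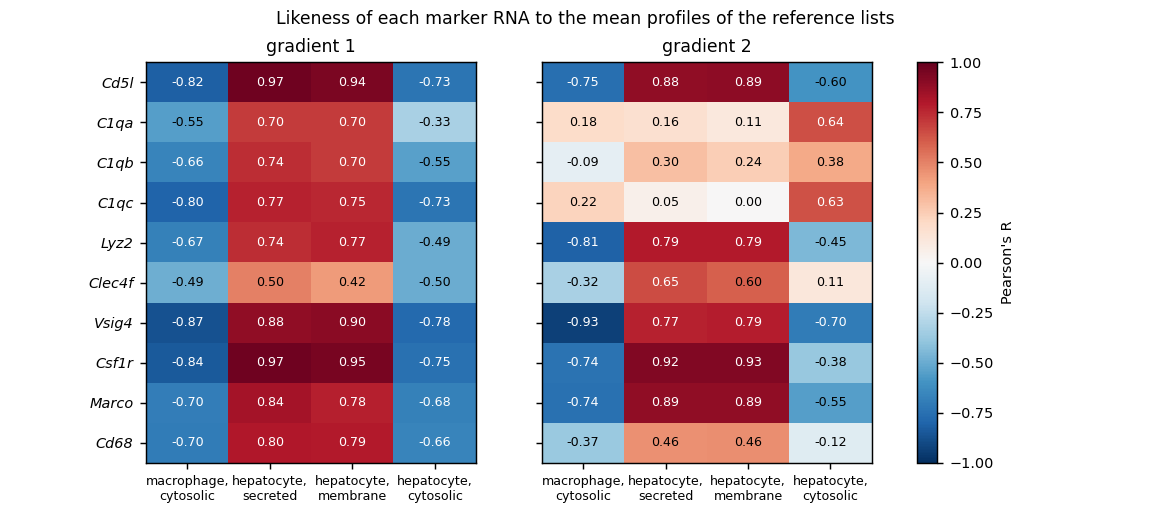
Pearson's R between the profile of each marker RNA (rows) and the mean profile of 4 reference lists (columns) in gradient 1 (left) and gradient 2 (right), from -1 (blue) to 1 (red). In gradient 2 the rows of C1qa, C1qb and C1qc have their highest values, 0.38 to 0.64, in the column of cytosolic hepatocyte RNAs.

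Hierarchical clustering of the profiles of 9269 genes of gradient 2 into as many clusters as the study used did not gather the markers. The other lists were spread as well, and the 16 clustered genes of each macrophage list lay in 14 clusters. Of the hepatocyte lists, 30 secreted genes lay in 15 clusters, 26 membrane genes in 16 and 30 cytosolic genes in 7. The 10 markers were found in 9 clusters, and C1qa and C1qb shared 1 of them. That cluster of 62 genes also holds Ctss, a lysosomal protease of macrophages, beside the hepatocyte RNAs Apoa1, Apoh and Rbp4. Csf1r was in a cluster of 181 genes with 9 RNAs of the secreted and 4 of the membrane list of hepatocytes and 3 of the macrophage list of the class, Axl, Cfp and Lgmn. Clec4f was in a cluster of 86 genes with 4 secreted and 3 membrane hepatocyte RNAs, and Marco in 1 of 10 genes with Adgre1, which encodes the macrophage antigen F4/80. Vsig4, C1qc and Cd68 were in clusters of 2 genes and Cd5l in 1 of 11, which left little room for sharing. No marker shared its cluster with a gene of the cytosolic macrophage list in this clustering, which held 16 of the 30 genes of that list. On log2(TPM + 1) profiles C1qa and C1qc were in a cluster of 2136 genes with 4 of that list (Aif1, Lcp1, Nckap1l and Pik3ap1) and 26 cytosolic hepatocyte RNAs. In gradient 1 C1qa, C1qb and C1qc shared a cluster of 18 genes with Ctss.

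The RNAs most like the mean profile of the markers, by the lower of the R values of the gradients among 8368 genes with a mean of at least 5 TPM, were Adgrl2 (0.96), Ces3a (0.96), Serpinf2 (0.96), Fgg (0.95), Cfb (0.95), Ptprk (0.95), Scpep1 (0.95) and Serping1 (0.95). They include the fibrinogen gamma chain (Fgg), complement factor B (Cfb) and C1 inhibitor (Serping1), which are secreted plasma proteins. The closest RNA to Cd5l was Abcc2, a transporter of the bile canaliculus, with an R of 0.99 in both gradients. For the other markers it was Slc35a1 for Vsig4 (0.96), Ces3a for Csf1r (0.95), F11r for Lyz2 (0.94), Hyal1 for Marco (0.92), Ephx1 for C1qc (0.85), Lmf1 for Clec4f (0.82), Mettl7b for C1qa (0.82), H2-Q10 for C1qb (0.79) and P2rx4 for Cd68 (0.76).

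The class can also be read from the coding sequence without any list. Of 10807 tested genes with a coding transcript of the same symbol, 3761 encode a hydrophobic stretch, either a mean Kyte-Doolittle hydropathy of at least 2 over 11 of the first 40 residues or of at least 1.6 over any 19. Between light and dense zones their median change was -0.95, against -0.001 for the 7046 genes without such a stretch, and from the light to the middle zone it was -0.67 against 0.33. The stretch is present in 10 of 10 markers, 21 of 22 other macrophage genes of the class, 57 of 57 hepatocyte genes of the class, 6 of 28 cytosolic macrophage genes and 7 of 30 cytosolic hepatocyte genes. Among all genes with the stretch 52.3% fell and 13.6% rose from the light to the dense zone, against 30.1% and 28.7% of genes without it. From the middle to the dense zone the medians were -0.17 with and -0.36 without the stretch. They were -0.289 and -0.288 in gradient 1 and -0.06 and -0.43 in gradient 2.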

How the data were processed

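RNA of 39 gradient fractions from 2 mice was sequenced by the authors as stranded, rRNA-depleted libraries. Per the labels and the study's methods, reads were demultiplexed with bcl2fastq 2.16.0.10 and pseudo-aligned with Kallisto (version not given) to mm10 RefSeq transcripts, and the authors deposited TPM per gene symbol. How transcripts were summed and whether strand was used are not given in the sources used here. Counts cannot be read from TPM, so library depth is unknown and precision rests on the spread between the 2 gradients.

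The 10 markers and all gene lists were chosen with earlier results of these data known. Zone means of log2(TPM + 1) over 4 fractions each (24 libraries, 6 means) were compared with limma 3.58.1 (R 4.3.3, eBayes with a trend) for 11754 genes with a mean of at least 1 TPM. All 3 zones of 1 gradient share a homogenate, so they are paired by gradient. Deviations of the gradients correlated between zones (r = 0.665, 0.540 and 0.798), and a second fit had the gradient as a block. Profiles (TPM over the mean of the fractions) were grouped by hierarchical clustering (average linkage, Euclidean distance). Both limma and this clustering were first tested on simulated data. Named are all markers, the 8 genes most like the mean profile of the markers and the 1 most like each. From each other list, genes were named from the 3 of highest mean TPM. In the hepatocyte lists not all 3 are named. No table of RefSeq proteins was used. Proteins and coding stretches were read from GENCODE M21 (GRCm38, the assembly of mm10), where 91.9% of tested genes matched by symbol. The reference is not of the FVB strain. Python 3.11.15, NumPy 2.4.6, pandas 2.3.3 and SciPy 1.17.1 were used. Protein mass spectrometry was not used here.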

Additional observations from a re-analysis of the deposited data

How the results depend on the processing

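The alternatives were a pseudocount of 0.1, no filter on TPM or a mean of at least 10 TPM, quantile normalization, TPM rescaled after removal of the 50 most abundant genes, zones of fractions 5 to 8, 11 to 14 and 15 to 18, the gradient as a replicate block, and each gradient alone. The count of markers lower in the dense than the light zone was 3 in place of 5 with a mean of at least 10 TPM, where 7 markers are tested and 35.5% of all genes were lower, and 3 after quantile normalization (29.8% of all genes), which lost Marco and Lyz2. The count for the middle zone was 3 with a mean of at least 10 TPM (20.4% of all genes), 4 after quantile normalization (24.5%) and with the pseudocount of 0.1 (22.2%), both without Marco, 6 with the other zones (30.2%), which added Cd68, and 8 with the block (35.0%). The median of the markers minus that of the cytosolic macrophage RNAs in the contrast of middle and light zones was -1.90 with a pseudocount of 0.1 and -1.89 with a mean of at least 10 TPM. Markers minus ER-targeted hepatocyte RNAs was 1.48 after quantile normalization for the dense zone, and for the middle zone 0.52, 0.94, 0.62, 0.92 and 0.68 with the pseudocount, the filter of 10, the rescaling, quantile normalization and the other zones, and 0.60 to 0.63 in single gradients. Other macrophage RNAs of the class minus those of hepatocytes for the dense zone turned to -0.037 with a pseudocount of 0.1 and ranged from -0.017 to 0.58 in single gradients, and was 1.07 after quantile normalization, and the difference by hydrophobic stretch between dense and middle zones ranged from -0.0014 to 0.37 in single gradients. Among genes of 1000 or more coding bases, a choice made after the data were seen, markers minus cytosolic macrophage RNAs was -2.07 for the dense and -2.01 for the middle zone, and among shorter genes -0.94 and -1.31. On log2 profiles the markers lay in 5 clusters in place of 9, and C1qa and C1qc then shared a cluster with 4 cytosolic macrophage RNAs. Lyz2 was also lost for the dense zone with the other zones (limma, adjusted p = 0.056) and Marco for the middle zone with the pseudocount of 0.1 (0.056). The cause of these changes was not tested. A TPM table sets no counting error, so low markers such as Marco and Cd68 have no known precision within a fraction.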

Other observations

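RNAs that mark other cells of the liver sinusoid, most of them for secreted or membrane proteins, were also mostly lower in the dense zone. Of 15 endothelial markers 14 passed the filter on mean TPM, and 13 fell and 0 rose from the light to the dense zone (median -1.22 against -0.43 over all genes). Eng, a co-receptor for TGF-beta ligands, fell by 1.22 ± 0.24 and Fcgr2b, an Fc receptor that clears immune complexes, fell by 0.78 ± 0.20 (limma, adjusted p = 0.0064 and 0.017). Clec4g, a lectin of sinusoidal endothelium, was at -0.65 ± 0.41 and did not pass (limma, adjusted p = 0.21). Of 10 stellate cell markers 8 passed the filter, and 7 fell and 0 rose (median -1.50), among them Rgs5 with -1.53 ± 0.28, Dcn with -1.28 ± 0.37 and Ecm1 with -0.82 ± 0.28 (limma, adjusted p = 0.0052, 0.026 and 0.044). The stellate gene that did not pass was Des, at 0.46 ± 0.26 (limma, adjusted p = 0.17), singled out after its value was seen. Des and Rgs5, which fell, both encode cytosolic proteins, and 6 of the 8 stellate genes encode a hydrophobic stretch. Of 4 cholangiocyte markers 3 passed the filter, Sox9, Spp1 and Krt19, and none was called by limma in this contrast (changes of -0.04, 0.22 and 0.56).

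The markers were also split by coding length, in a comparison chosen after the data were seen, and the groups overlapped. The 5 markers with under 1000 coding bases, C1qa (735), C1qb (759), C1qc (738), Lyz2 (444) and Vsig4 (840), had a median change of -0.19 to the dense zone, and the 5 longer ones, Cd5l, Marco, Clec4f, Cd68 and Csf1r, a median of -1.38. The short group holds Vsig4 at -1.60 and the 3 C1q chains, and its median, that of C1qb, was -0.45 in gradient 1 and 0.06 in gradient 2, while the long group holds Clec4f at -0.23. Among ER-targeted hepatocyte RNAs the medians were -0.72 for 8 short and -1.68 for 49 long ones. The other macrophage RNAs of the class gave -1.24 for 7 short and -1.17 for 15 long ones, and all genes with a hydrophobic stretch gave -0.99 and -0.93, so the order of short and long RNAs differed between these sets.

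The S100a8 and S100a9 RNAs of neutrophils, the only blood myeloid markers tested, were at 1.72 ± 0.67 and 1.45 ± 0.74 from the light to the middle zone, and neither passed the test (limma, adjusted p = 0.079 and 0.16). Their list summed to 14.3 to 23.5 TPM in the middle zone of gradient 1 and 3.38 to 5.74 TPM in that of gradient 2, beside 3.39 to 7.90 TPM and 1.79 to 5.78 TPM in the light zone. No marker of Kupffer cells was highest in the middle zone of either gradient.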
